A study of Danio rerio with 12 samples.

Results

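The integrated stress response is followed here through 10 genes in zebrafish liver: atf4a, atf4b, atf3, ddit3, trib3, chac1, asns, psat1, sesn2 and ddit4. They were taken from the 34028 genes of the deposited count table by gene name, and all 10 were found. Liver RNA came from kras transgenic zebrafish at 3 months of age, which the series title calls krasV12. Every group carried that transgene. The 12 libraries formed 4 groups of 3 libraries: the solvent control DMSO, DOX, TDCIPP, and both agents in combination (written TDCIPP+DOX). The flame retardant TDCIPP is the organophosphate tris(1,3-dichloro-2-propyl)phosphate. DOX is not spelled out in the labels. The promoter that drives the transgene, the doses, the length of treatment, the sex and the hour of collection were not given in the labels or the series text. Whether libraries of 1 group derive from different animals is not stated, so the p-values reflect spread among libraries, part of which may be technical.

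The integrated stress response slows protein synthesis when cells lack amino acids or haem, hold misfolded protein in the endoplasmic reticulum (ER) or meet viral RNA. Kinases that each sense one of these conditions phosphorylate the initiation factor eIF2, general translation falls, and the mRNA of the transcription factor ATF4 is translated more. ATF4 then raises transcription of genes for amino acid synthesis and transport, of other transcription factors and of feedback inhibitors. Because ATF4 is controlled to a large part at translation, its mRNA level does not measure its protein. The roles named below are known mainly from mammals, and liver is a tissue in which both amino acid supply and ER load are known to engage the pathway.

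Libraries held 28621536 to 40877342 reads assigned to genes. The filter on low counts kept 19160 genes for testing, 9 of the 10 members among them. All 9 hepatocyte markers were detected in every library, with a summed level of 43296 to 92091 CPM, reads scaled to a common library size, lowest in DOX replicate 3. That library stood apart: its log2 CPM correlated at r = 0.818 and 0.811 with DOX replicates 1 and 2, against 0.944 between those. The summed level of 10 oocyte markers was 1178 CPM there and 7.26 to 131 CPM in the other 11 libraries. The intestine gene fabp2 was at 55.7 CPM in DMSO replicate 3, 46.8 CPM in TDCIPP replicate 1 and 106 CPM in TDCIPP+DOX replicate 3, against at most 8.73 CPM elsewhere. The 9 intestine markers summed to 848, 759 and 1698 CPM in those libraries. Sums were 604 to 628 CPM in the other DMSO and TDCIPP libraries, 216 and 325 CPM in TDCIPP+DOX replicates 1 and 2, and 169 to 279 CPM in DOX. The gene apoa4b.1 alone was at 503 to 561 CPM in DMSO and TDCIPP. It was at 136 to 233 CPM in DOX and 136 to 314 CPM in TDCIPP+DOX. Differences of the sums between DMSO or TDCIPP and DOX thus largely followed apoa4b.1, while vil1 was at 0.0485 CPM in DMSO replicate 2. Not every marker followed fabp2: cdh17 was at 12.4 CPM in TDCIPP replicate 1 and 20.6 CPM in TDCIPP replicate 2. All 11 exocrine pancreas markers were detected in every library, with sums from 65.3 CPM in DOX replicate 3 to 2842 CPM in DMSO replicate 3. The part of pancreas transcripts in the results below was not tested. The biological coefficient of variation over all genes was 54.5%. In bulk liver, fewer cells of a type and less RNA per cell cannot be told apart.

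A single member passed the test in a single comparison. ddit4, which encodes an inhibitor of the growth kinase complex mTORC1, rose 11.5-fold in TDCIPP+DOX over TDCIPP (edgeR adjusted p = 0.0384). The count of members past an edgeR adjusted p of 0.05 was 0 of 9 for TDCIPP against DMSO, where 0.0418% of all tested genes passed. It was 0 of 9 for DOX against DMSO (6.86% of all genes), 0 of 9 for TDCIPP+DOX against DOX (2.1%) and 0 of 9 for TDCIPP+DOX against DMSO (11.7%). For TDCIPP+DOX against TDCIPP it was 1 of 9, where 4.18% of all genes passed. For the interaction, which is the TDCIPP effect in the presence of DOX minus that in its absence, it was 0 of 9 (0.0261%). DESeq2 called psat1 in DOX against DMSO, where it called 9.52% of all genes, and ddit4 in TDCIPP+DOX against TDCIPP (5.91%). It called 0 members in TDCIPP against DMSO (1.49%), TDCIPP+DOX against DOX (7.59%), TDCIPP+DOX against DMSO (12.5%) and the interaction (1%). The comparisons share groups, so they are not independent of each other.

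Levels of the members relative to each other were compared as FPKM, the authors' deposited values per length and per library total. In DMSO liver, atf4a led at 40.5 ± 11.3 FPKM (SD, n = 3) and atf4b followed at 33.4 ± 7.97 FPKM. These levels were above those of 95.8% and 95.1% of the tested genes. Their libraries overlapped, so the order of these paralogues did not exceed their spread. ddit3 was next at 9.21 ± 1.66 FPKM, with no library in common with the range of either atf4 paralogue or of trib3. trib3 at 4.92 ± 1.23 FPKM and asns at 4.83 ± 0.593 FPKM overlapped. atf3 at 2.49 ± 2.88 FPKM ranged from 0.619 to 5.81 FPKM over 3 libraries and so overlapped trib3, asns, ddit4 and sesn2. ddit4 at 1.68 ± 0.287 FPKM and sesn2 at 0.939 ± 0.786 FPKM also overlapped. psat1 was lowest of those with reads, at 0.159 ± 0.214 FPKM, above 15.9% of the tested genes, and its range overlapped that of sesn2.

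The atf4 paralogues stayed at the head of the order by FPKM in all 4 groups. Below them the order differed: atf3 came next in TDCIPP (12 ± 11.6 FPKM), asns in DOX (12.1 ± 0.73 FPKM) and trib3 in TDCIPP+DOX (13 ± 0.345 FPKM). In TDCIPP the libraries of atf3 overlapped those of ddit3, asns and trib3 and, at their upper end, those of atf4b. In DOX those of asns overlapped only the wide range of ddit4 and, at its upper end, that of sesn2. With both agents those of trib3 overlapped with ddit3 and ddit4. The FPKM ratio of atf4a to atf4b was 1.25 ± 0.37 (SD, n = 3) in DMSO, 1.99 ± 0.608 in DOX, 2.01 ± 0.654 in TDCIPP and 1.64 ± 0.214 in TDCIPP+DOX. The ratio's libraries overlapped between DMSO, where they ran from 0.871 to 1.61, and each of the other groups.

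**Figure D1:**
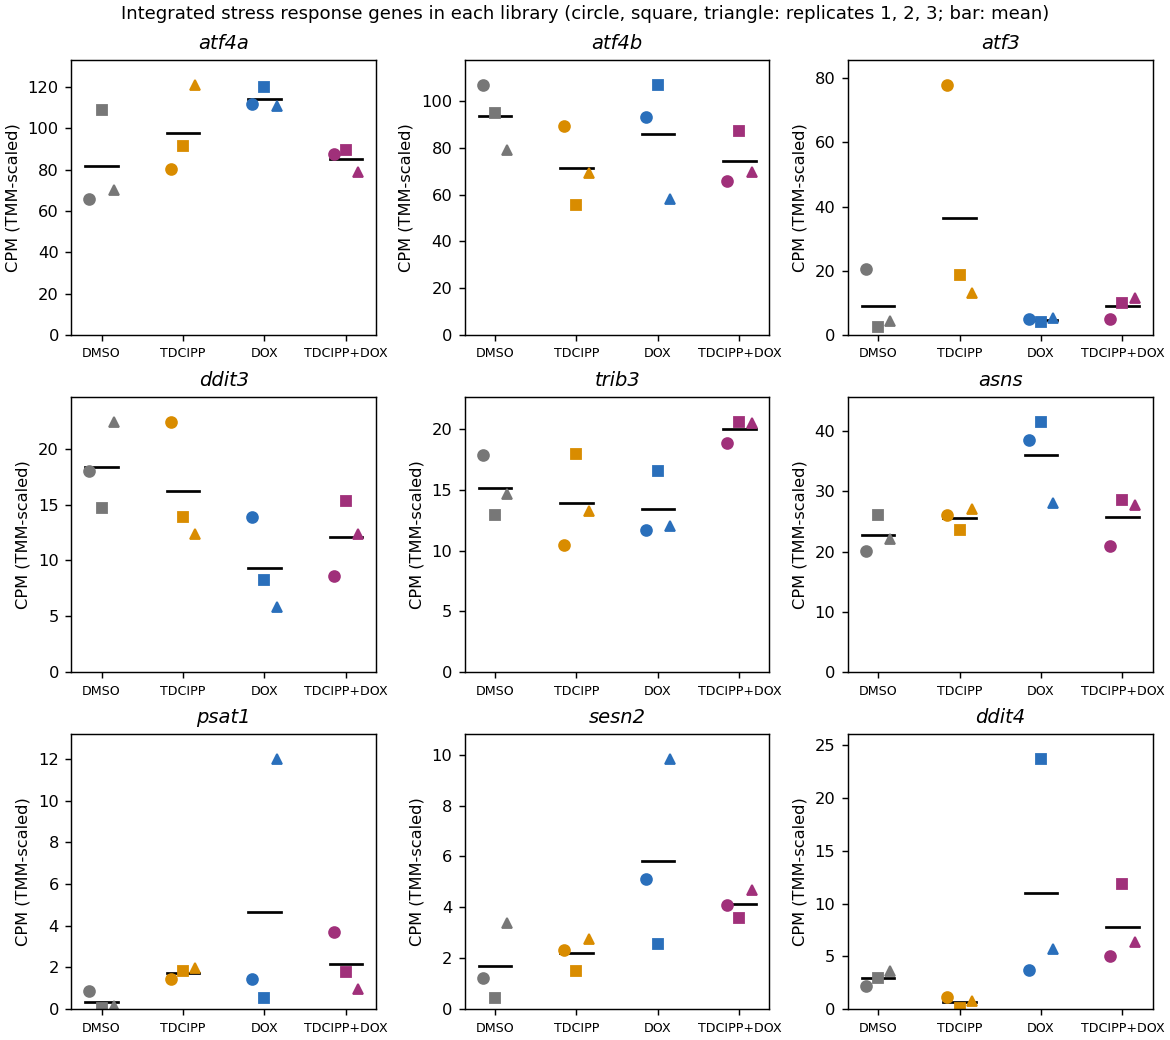
Level of the 9 members with reads in each of the 12 libraries, as CPM scaled by TMM on linear axes that start at 0, with 1 panel per gene and 1 colour per group. Points are libraries and horizontal lines group means. TDCIPP replicate 1 stands out for atf3 at 77.9 CPM, DOX replicate 3 for psat1 at 12 CPM, and DOX replicate 2 for ddit4 at 23.7 CPM; chac1, at 0 reads in every library, is not drawn.

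Differences between groups below are in CPM scaled by TMM, with log2 fold changes from edgeR. The TMM factors were 0.6402 to 0.7702 in DMSO and 0.8221 to 1.004 in TDCIPP. They were 0.9454 to 1.523 in DOX and 1.393 to 1.457 in TDCIPP+DOX. The order of groups by CPM can therefore differ from that by FPKM. The transcription factor genes come first. atf4a (chromosome 6, 269204 to 272554, plus strand; no source used here names the genome build) was at 66, 109 and 70.4 CPM in DMSO replicates 1, 2 and 3. It was at 80.1, 91.6 and 121 CPM in TDCIPP, 112, 120 and 111 CPM in DOX, and 87.5, 89.6 and 79 CPM in TDCIPP+DOX. All DOX libraries lay above all DMSO libraries and above all TDCIPP+DOX libraries, while the TDCIPP libraries overlapped those of DMSO. By FPKM, DOX at 78.7 to 120 overlapped TDCIPP+DOX at 79 to 90.6, and both lay above DMSO at 32 to 53.3. The log2 fold change was 0.49 ± 0.22 (SE) for DOX against DMSO (edgeR adjusted p = 0.19) and -0.42 ± 0.22 for TDCIPP+DOX against DOX (edgeR adjusted p = 0.261). Neither passed.

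atf4b, the second zebrafish ATF4 gene (chromosome 3, 24197934 to 24200819, plus strand), was at 107, 95 and 79.1 CPM in DMSO. It was at 89.6, 55.8 and 69.2 CPM in TDCIPP, 93.3, 107 and 58.3 CPM in DOX, and 65.9, 87.2 and 69.7 CPM in TDCIPP+DOX. Every pair of groups overlapped by CPM. By FPKM, DOX at 44.7 to 51 and TDCIPP+DOX at 48.5 to 61.3 lay above DMSO at 25.6 to 41.5 and TDCIPP at 23.2 to 39.8. The log2 fold changes of the 5 comparisons between groups ran from -0.39 ± 0.26 (SE) for TDCIPP against DMSO to 0.05 ± 0.26 for TDCIPP+DOX against TDCIPP. The edgeR adjusted p-values were 0.651 and 0.949.

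atf3, a stress-induced factor of the same bZIP family (chromosome 20, 37794633 to 37800737, plus strand), varied most in DMSO and TDCIPP. Its levels were 20.4, 2.42 and 4.39 CPM in DMSO, 77.9, 18.6 and 13.1 CPM in TDCIPP, 5.09, 4.05 and 5.12 CPM in DOX, and 4.99, 10 and 11.6 CPM in TDCIPP+DOX. TDCIPP replicate 1 was the highest library, and DMSO replicate 1 lay above TDCIPP replicates 2 and 3, so the groups overlapped. The log2 fold change for TDCIPP against DMSO was 2.01 ± 0.81 (SE), with an unadjusted p of 0.0293 and an edgeR adjusted p of 0.428. It was 0.80 without TDCIPP replicate 1 and 3.42 without DMSO replicate 1, and did not pass in either case. All TDCIPP+DOX libraries lay below all TDCIPP libraries, with a log2 fold change of -2.04 ± 0.80 (edgeR adjusted p = 0.205), or -0.83 without TDCIPP replicate 1. By FPKM, TDCIPP+DOX at 2.69 to 6.03 overlapped TDCIPP at 4.87 to 25.4. For DOX against DMSO the value of -0.93 ± 0.79 became 0.48 without DMSO replicate 1.

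TDCIPP replicate 1 also stood apart from the rest of its group in ER chaperones. hspa5, the main ER chaperone gene, was at 1717 CPM there and at 212 and 189 CPM in TDCIPP replicates 2 and 3. hsp90b1 was at 2286 CPM against 249 and 270 CPM, and pdia4 at 804 CPM against 76 and 76.3 CPM. In the DOX libraries hspa5 was at 1288 to 1513 CPM and atf3 at 4.05 to 5.12 CPM. In TDCIPP+DOX replicates 1, 2 and 3 hspa5 was at 1538, 768 and 343 CPM and atf3 at 4.99, 10 and 11.6 CPM. TDCIPP+DOX replicate 1 had hsp90b1 at 1830 CPM and pdia4 at 810 CPM. The part of ER chaperone levels in the atf3 result was not tested. Neutrophil and macrophage markers (8 to 10 of 10 detected in each library) summed to 248 to 394 CPM in TDCIPP, 168 to 209 CPM in DMSO, 124 to 163 CPM in DOX and 258 to 383 CPM in TDCIPP+DOX. The sum was 248, 249 and 394 CPM in TDCIPP replicates 1, 2 and 3, and cd68 alone was at 78.8 to 172 CPM over the libraries. The part of neutrophils and macrophages in the levels of atf3 was not tested.

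ddit3 encodes CHOP, a factor linked to cell death under prolonged ER stress (chromosome 6, 58915889 to 58919086, plus strand). It was at 18, 14.7 and 22.4 CPM in DMSO, 22.4, 13.9 and 12.4 CPM in TDCIPP, 13.9, 8.25 and 5.8 CPM in DOX, and 8.6, 15.3 and 12.4 CPM in TDCIPP+DOX. The 3 DOX libraries lay below the 3 DMSO libraries, and the other groups overlapped DMSO. By FPKM, DOX at 5.62 to 9.85 overlapped DMSO at 7.3 to 10.3. The log2 fold change for DOX against DMSO was -0.98 ± 0.36 (SE), a level 1.97-fold lower, with an unadjusted p of 0.0192 and an edgeR adjusted p of 0.119. For TDCIPP against DMSO it was -0.18 ± 0.36 (edgeR adjusted p = 0.889), with a 95% interval from -0.96 to 0.60.

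trib3, a pseudokinase that binds ATF4 and CHOP and dampens them, is on chromosome 11 (24058530 to 24063196, minus strand). Levels were 17.9, 12.9 and 14.7 CPM in DMSO, 10.5, 18 and 13.3 CPM in TDCIPP, 11.7, 16.6 and 12 CPM in DOX, and 18.9, 20.6 and 20.5 CPM in TDCIPP+DOX. The TDCIPP+DOX libraries lay above every library of the other 3 groups and close to each other. The log2 fold changes were 0.58 ± 0.24 (SE) over DOX, 0.40 ± 0.24 over DMSO and 0.52 ± 0.24 over TDCIPP. The edgeR adjusted p-values were 0.173, 0.315 and 0.277, so none passed, although the first and the last had unadjusted p-values of 0.0326 and 0.0494.

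Among the amino acid synthesis genes, asns makes asparagine and is a standard ATF4 target (chromosome 19, 25656812 to 25678002, minus strand). Its levels were 20.1, 26 and 22 CPM in DMSO, 26, 23.5 and 27 CPM in TDCIPP, 38.5, 41.5 and 28 CPM in DOX, and 20.9, 28.5 and 27.7 CPM in TDCIPP+DOX. All DOX libraries lay above all DMSO libraries, and TDCIPP+DOX overlapped every other group by CPM. By FPKM, TDCIPP+DOX at 9.25 to 12.1 lay above TDCIPP at 5.89 to 8.24, which lay above DMSO at 4.3 to 5.47. The log2 fold change for DOX against DMSO was 0.66 ± 0.21 (SE), 1.58-fold, with an edgeR adjusted p of 0.0764. DOX replicate 3 had the lowest asns of its group by CPM and the highest by FPKM, at 13 against 11.5 and 12. Without that library the log2 fold change was 0.83 with an edgeR adjusted p of 0.0311. For TDCIPP+DOX against DOX it was -0.49 ± 0.20 (edgeR adjusted p = 0.18). The interaction was -0.65 ± 0.29, with an unadjusted p of 0.0447 and an edgeR adjusted p of 0.385.

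psat1 encodes the aminotransferase of serine synthesis (chromosome 5, 69486184 to 69499595, minus strand) and had few reads, from 1 to 548 a library. Levels were 0.862, 0.0485 and 0.134 CPM in DMSO, 1.44, 1.8 and 1.95 CPM in TDCIPP, 1.46, 0.511 and 12 CPM in DOX, and 3.71, 1.76 and 0.97 CPM in TDCIPP+DOX. All TDCIPP and all TDCIPP+DOX libraries lay above all DMSO libraries, whereas DOX replicate 2 lay below DMSO replicate 1. The log2 fold change was 2.30 ± 1.16 (SE) for TDCIPP against DMSO (edgeR adjusted p = 0.545) and 2.61 ± 1.16 for TDCIPP+DOX against DMSO (edgeR adjusted p = 0.176). For DOX against DMSO it was 3.73 ± 1.21, with adjusted p-values of 0.0863 in edgeR and 0.00668 in DESeq2. That value rested on DOX replicate 3: without it the log2 fold change was 1.5 with an edgeR adjusted p of 0.369. For TDCIPP+DOX against DOX the value of -1.12 ± 1.06 became 1.13 without that library.

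chac1, whose product degrades glutathione, was listed at 0 reads in all 12 libraries. At these depths 3 reads would correspond to 0.0533 to 0.145 CPM in a library on the TMM scale, which is the upper limit that a count of 0 allows, for counting error only. The table places chac1 on chromosome 20 from 28266892 to 28269462 on the plus strand, wholly within ino80, which lies from 28266327 to 28352352 on the minus strand and had 346 to 871 reads. Of 2361 Ensembl genes that lie wholly within a gene on the other strand, 911 had 0 reads in all libraries (38.6%), against 4420 of the 29534 others (15%). No source used here names the counting program or its strand setting, so no expression and no counted reads cannot be told apart for chac1. No other member overlapped a gene of the table.

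sesn2 encodes a sestrin that inhibits mTORC1 when leucine is short (chromosome 19, 43341115 to 43357457, plus strand). Levels were 1.23, 0.436 and 3.4 CPM in DMSO, 2.33, 1.49 and 2.76 CPM in TDCIPP, 5.12, 2.55 and 9.83 CPM in DOX, and 4.08, 3.59 and 4.7 CPM in TDCIPP+DOX. The TDCIPP+DOX libraries lay above all DMSO and all TDCIPP libraries, and DOX overlapped DMSO through DOX replicate 2. By FPKM, DOX at 1.99 to 12.3 lay above DMSO at 0.248 to 1.79. The log2 fold change was 1.28 ± 0.65 (SE) for TDCIPP+DOX against DMSO (edgeR adjusted p = 0.233). For DOX against DMSO it was 1.79 ± 0.66 (edgeR adjusted p = 0.12), and 1.18 without DOX replicate 3.

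psat1 and sesn2 were both highest in DOX replicate 3, the library with the most oocyte marker transcripts. The oocyte gene buc was at 205 CPM there and at most 22.6 CPM in any other library. phgdh, the first enzyme of serine synthesis, was at 15.3 CPM there against 0.409 and 0.219 CPM in DOX replicates 1 and 2. The lipoprotein receptor gene vldlr was at 119 CPM against 3.6 and 0.803 CPM. The part of oocyte transcripts in these levels was not tested.

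**Figure D2:**
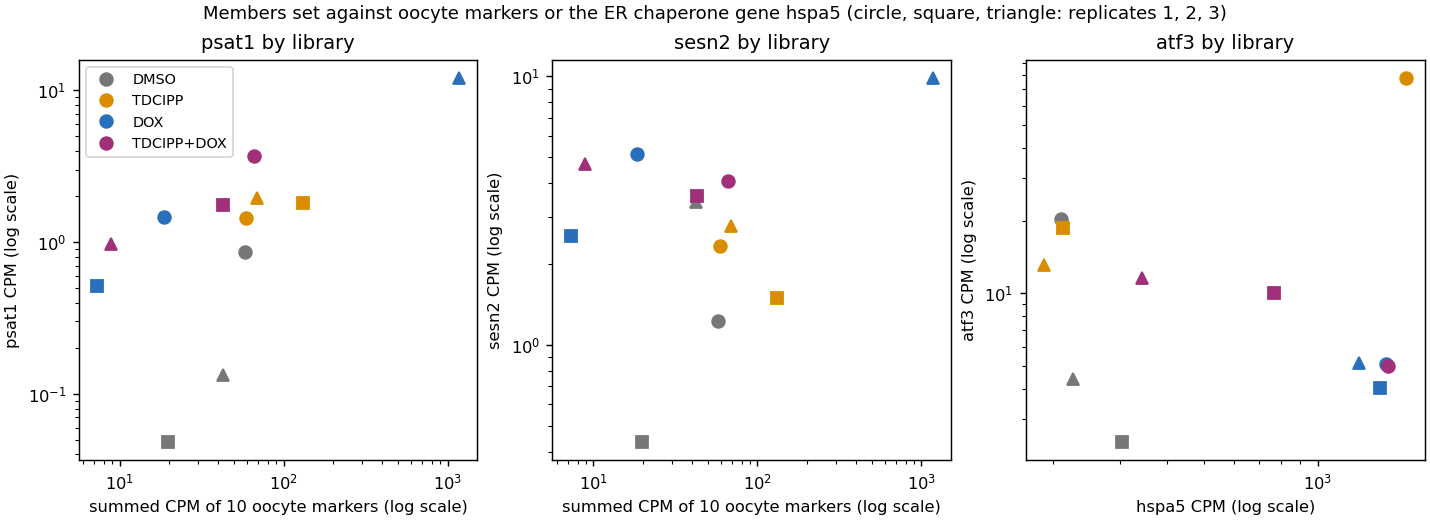
psat1 and sesn2 against the summed CPM of 10 oocyte markers, and atf3 against the ER chaperone gene hspa5, on log axes; each point is a library, coloured by group, with the shape giving the replicate. DOX replicate 3, at an oocyte sum of 1178 CPM, is the highest point for psat1 and sesn2, and TDCIPP replicate 1 has the highest hspa5 and atf3, while DOX libraries with hspa5 of 1288 to 1513 CPM have atf3 near 5 CPM.

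ddit4 (chromosome 12, 48340133 to 48342259, plus strand), the gene that passed, was lowest in TDCIPP. It was at 2.13, 2.91 and 3.63 CPM in DMSO, 1.1, 0.104 and 0.78 CPM in TDCIPP, 3.71, 23.7 and 5.69 CPM in DOX, and 5.03, 11.9 and 6.31 CPM in TDCIPP+DOX. All TDCIPP libraries lay below all libraries of the other groups, and all DOX and TDCIPP+DOX libraries lay above all DMSO libraries. TDCIPP replicate 2 held 3 reads of ddit4. For TDCIPP+DOX against TDCIPP the log2 fold change was 3.53 ± 0.83 (SE), with a 95% interval from 1.70 to 5.36, an edgeR adjusted p of 0.0384 and a DESeq2 adjusted p of 0.000225. The call was lost without any 1 DMSO, TDCIPP or TDCIPP+DOX library, with log2 fold changes of 3.04 to 4.08 and edgeR adjusted p-values of 0.0567 to 0.125, and kept without any 1 DOX library.

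For ddit4 in TDCIPP against DMSO the log2 fold change was -2.11 ± 0.80 (SE), with an unadjusted p of 0.0233 and an edgeR adjusted p of 0.402. For DOX against DMSO it was 1.93 ± 0.77 (edgeR adjusted p = 0.146), and 0.70 without DOX replicate 2. For TDCIPP+DOX against DMSO it was 1.42 ± 0.76 (edgeR adjusted p = 0.26). The interaction was 1.60 ± 1.08 (edgeR adjusted p = 0.516), so a difference between the effects of TDCIPP with and without DOX did not pass.

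**Figure D3:**
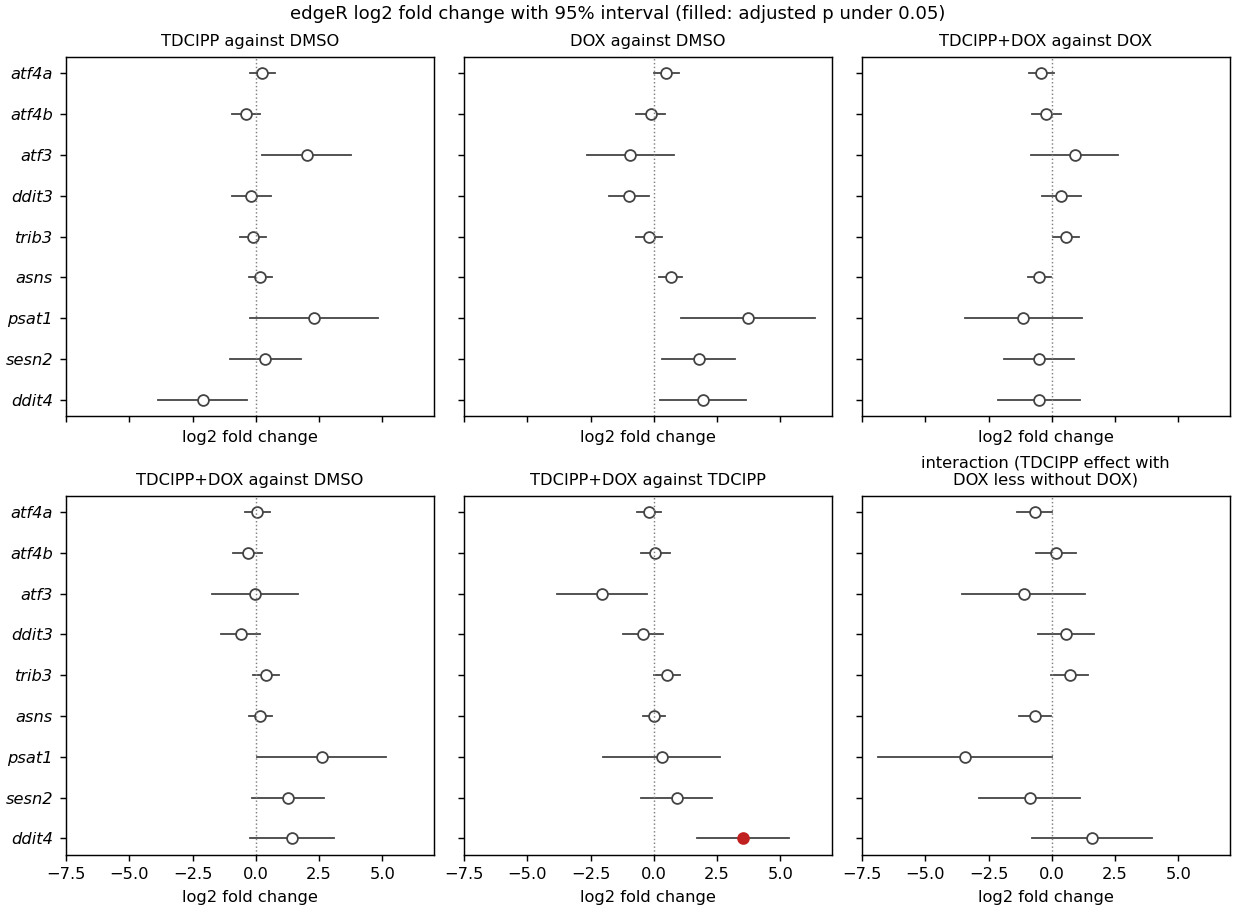
edgeR log2 fold change of each of the 9 tested members in the 5 comparisons between groups and the interaction, with 95% intervals; a filled point has an adjusted p under 0.05. The only filled point is ddit4 at 3.53 in TDCIPP+DOX against TDCIPP, and the intervals of psat1, atf3, sesn2 and ddit4 are wider than those of atf4a, atf4b, trib3, asns and ddit3.

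The members did not move as 1 block. In TDCIPP against DMSO, 5 members had log2 fold changes above 0 and 4 below, with a median of 0.17 against 0.02 over all tested genes. Libraries did not overlap for psat1, which was higher (10.4% of all genes), and ddit4, which was lower (8.95% of all genes). At an unadjusted p under 0.05 there were 2 members, atf3 above and ddit4 below 0, against 10% of all genes.

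In DOX against DMSO the members' median log2 fold change was 0.49 against 0.12 over all genes, again with 5 above 0 and 4 below. Libraries did not overlap for atf4a, asns and ddit4, which were higher (13.7% of all genes), and ddit3, which was lower (12.3%). At an unadjusted p under 0.05 there were 5 members: asns, psat1, sesn2 and ddit4 above 0 and ddit3 below, against 26.6% of all genes. With libraries scaled by their totals, the median of all genes moved from 0.12 to 0.83, and 5 members were then called higher: asns, psat1, ddit4, sesn2 and atf4a (25.1% of all genes called higher under that scaling). Directions here are relative to the TMM scale.

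With TDCIPP added to DOX, 6 members had values below 0 and 3 above, with a median log2 fold change of -0.42 against -0.08 over all genes. Without the 4 libraries with intestine or oocyte transcripts that median was 0.02. On the TMM scale, libraries did not overlap for trib3, which was higher (13.5% of all genes), and atf4a, which was lower (13.6%). The unadjusted p was under 0.05 for trib3 above and asns below 0, against 24.4% of all genes.

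The members' median log2 fold change for TDCIPP+DOX against DMSO was 0.18 against 0.10 over all genes, with 6 above 0. Libraries did not overlap for trib3, sesn2, psat1 and ddit4, which were higher (21.2% of all genes), and for 0 members that were lower (18%). The unadjusted p was under 0.05 for psat1 alone, against 27.1% of all genes. Under library totals 6 members were called higher, trib3, asns, ddit4, atf4b, sesn2 and atf4a, where 36.4% of all genes were called higher and the median of all genes was 1.11.

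The median for TDCIPP+DOX against TDCIPP was 0.05 against -0.01 over all genes. Libraries did not overlap for trib3, sesn2 and ddit4, which were higher (14.7% of all genes), and atf3, which was lower (15.4%). The unadjusted p was under 0.05 for ddit4, trib3 and atf3, against 17.9% of all genes. For the interaction the members' median was -0.65 against -0.13 over all genes, and it became 0.25 without the 4 libraries. The unadjusted p of the interaction was under 0.05 for asns alone, against 12.8% of all genes. In the authors' deposited table, which gives adjusted p-values for 4 of these comparisons and not for TDCIPP+DOX against TDCIPP, 0 of 9 members were under 0.05 in each. Of all genes with a value there, the authors' deposited table has 66 of 26690 (0.247%) under 0.05 in TDCIPP against DMSO, 194 of 27004 (0.718%) in DOX against DMSO, 34 of 27804 (0.122%) in TDCIPP+DOX against DOX and 1356 of 27194 (4.99%) in TDCIPP+DOX against DMSO. The smallest value of a member in the authors' deposited table was 0.16099, for ddit4 in TDCIPP against DMSO.

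Spread between libraries of a group differed among the members. The biological coefficient of variation was 24.2% for asns, 25.5% for atf4a, 26% for trib3, 27.8% for atf4b and 34.4% for ddit3, below the median of 42.4% over the tested genes. It was 55.4% for sesn2, 63.9% for ddit4, 65.3% for atf3 and 87.9% for psat1. Over the 12 libraries the log2 CPM of atf4a and asns correlated at r = 0.70, that of sesn2 and psat1 at r = 0.69, and that of atf4a and ddit3 at r = -0.61. Those pairs had the strongest correlations, in either direction, among all pairs of the 9 members. Others included atf4b with asns at r = 0.32 and asns with psat1 at r = 0.01. All of these values are descriptions over libraries that share treatments, TMM scaling and tissue composition. The genes most like atf3 by Pearson r of log2 CPM over the 12 libraries were cxcl18b (r = 0.90), rnf166 (0.88), creb3l2 and g0s2 (0.84 each) and ei24 (0.83). For the mean of the 9 members they were dcbld2, prodha and agpat4 (0.88 each), znf1093 (0.87) and smu1b (0.86).

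The genes upstream of ATF4 were described from a list of 17: the eIF2 kinases, their activator and inhibitor, the phosphatase subunits that reverse the mark, eIF2 and its exchange factor eIF2B. In TDCIPP against DMSO, 0 of the 17 passed in edgeR (0.0418% of all genes), where 3 had an unadjusted p under 0.05 (10% of all genes). DESeq2 called 1, ppp1r15b (1.49% of all genes). In DOX against DMSO, 1 rose and 3 fell, where 6.86% of all genes were called. DESeq2 called 3 higher and 3 lower there (9.52% of all genes). eif2ak3, the ER-stress kinase PERK, rose from 22.2 ± 2.06 CPM (SD, n = 3) to 49.5 ± 7.75 CPM, a log2 fold change of 1.16 ± 0.24 (SE, edgeR adjusted p = 0.023). The eIF2 subunit genes eif2s1b and eif2s3 fell, with log2 fold changes of -1.01 ± 0.21 and -0.88 ± 0.20, and so did gcn1, the activator of the amino acid kinase GCN2, at -0.72 ± 0.18 (edgeR adjusted p = 0.0227, 0.0294 and 0.0371). The list's median was -0.14 against 0.12 over all genes, and 0.62 against 0.83 under library totals, where 5 of the 17 were called higher and 0 lower (25.1% of all genes called higher) and gcn1 was at -0.04. Leaving out each library gave 0 to 5 calls (1.04% to 6.52% of all genes called), with 0 without DMSO replicate 2 or 3 and 1 without DMSO replicate 1 or DOX replicate 2. With the DOX and DMSO libraries alone 0 were made (0.597% of all genes), with no filter on low counts 2 (2.87%) and without the 4 libraries 1 (3.57%).

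With TDCIPP added to DOX, eif2ak3 fell to 14.1 ± 3.02 CPM, a log2 fold change of -1.81 ± 0.25 from DOX (edgeR adjusted p = 0.0244), and 0 others of the list passed (2.1% of all genes called). The eif2ak3 call held in 6 of 12 fits leaving out 1 library, with edgeR adjusted p-values up to 0.111. Under library totals it was lost, at -1.55 (edgeR adjusted p = 0.0557). With the TDCIPP+DOX and DOX libraries alone, 0 of all tested genes were called. The 3 TDCIPP+DOX libraries, at 17.5, 13.1 and 11.7 CPM, lay below those of DOX, at 44, 46.1 and 58.3 CPM, and below those of DMSO, at 20.7, 24.5 and 21.3 CPM. Against DMSO the log2 fold change of -0.65 ± 0.24 did not pass (edgeR adjusted p = 0.102). The interaction for eif2ak3 was -2.12 ± 0.34, with an edgeR adjusted p of 0.0797 and a DESeq2 adjusted p of 0.000102. The amino acid kinase gene eif2ak4 had a log2 fold change between -0.54 ± 0.24 and -0.22 ± 0.24 in the 5 comparisons between groups and passed in none. The haem kinase gene eif2ak1 and the RNA kinase gene eif2ak2 passed in none either.

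Between TDCIPP+DOX and DMSO, 1 gene of the list rose and 4 fell, where 11.7% of all genes were called. ppp1r15b, a subunit that directs a phosphatase to eIF2, rose from 0.276 ± 0.0755 to 8.72 ± 1.92 CPM, a log2 fold change of 4.96 ± 1.08 (SE, edgeR adjusted p = 0.0138). Its libraries also lay above all DMSO libraries in DOX (13.7% of all genes) and in TDCIPP (10.4%), without passing in edgeR. Those log2 fold changes were 3.62 ± 1.03 for DOX (edgeR adjusted p = 0.0581, DESeq2 adjusted p = 0.00239) and 3.15 ± 1.02 for TDCIPP (edgeR adjusted p = 0.314, DESeq2 adjusted p = 0.0368). eif2s1b, eif2s3 and gcn1 fell again, with log2 fold changes of -1.47 ± 0.21, -1.33 ± 0.20 and -1.16 ± 0.18 (edgeR adjusted p = 0.00261, 0.00307 and 0.00328). The same 3 genes and eif2ak3 fell against TDCIPP, at -0.96 ± 0.21, -1.03 ± 0.20, -0.76 ± 0.18 and -0.96 ± 0.24 (edgeR adjusted p = 0.028, 0.0198, 0.0359 and 0.0481; 4.18% of all genes called). Those calls held in 6, 7, 3 and 1 of 12 fits leaving out 1 library. Under library totals the values were -0.30, -0.38, -0.10 and -0.30, and none passed (edgeR adjusted p = 0.233, 0.154, 0.722 and 0.57). ppp1r15a, the inducible subunit known in mammals as GADD34, passed in none of the comparisons, and its log2 fold change for DOX against DMSO was -1.99 ± 0.81 (edgeR adjusted p = 0.152). Under library totals 4 genes of the list were called higher in TDCIPP+DOX than in DMSO (36.4% of all genes called higher), and no gene of this or the other pathway lists was called lower in any comparison.

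Of 8 partner and neighbour factors of ATF4, 0 passed in TDCIPP against DMSO (0.0418% of all genes). atf5a, a close relative of ATF4, was at 1.34 ± 0.641 CPM in DMSO and 7.11 ± 3.82 CPM in TDCIPP with no overlap, a log2 fold change of 2.41 ± 0.54 (edgeR adjusted p = 0.177, DESeq2 adjusted p = 0.00247). Its paralogue atf5b had a far higher level and the other direction, at 263 ± 58 CPM in DMSO and 177 ± 38.3 CPM in TDCIPP. The atf5b libraries did not overlap either, with a log2 fold change of -0.57 ± 0.37 (edgeR adjusted p = 0.642). For atf5a, all DOX libraries (13.7% of all genes) and all TDCIPP+DOX libraries (21.2%) also lay above all DMSO libraries. Its log2 fold changes over DMSO were 1.53 ± 0.52 in DOX (edgeR adjusted p = 0.101, DESeq2 adjusted p = 0.0458) and 1.32 ± 0.52 in TDCIPP+DOX (edgeR adjusted p = 0.128, DESeq2 adjusted p = 0.0897). jdp2b, a bZIP repressor that binds AP-1 sites, rose in TDCIPP+DOX over DMSO (4.16 ± 1.14, edgeR adjusted p = 0.0384) and over TDCIPP (5.26 ± 1.20, edgeR adjusted p = 0.0341). Its TDCIPP+DOX libraries were at 0.646, 10.3 and 27.3 CPM, so the rise was in replicates 2 and 3, and replicate 1 lay within the DMSO range. Neither call held without the 4 libraries, with edgeR adjusted p-values of 0.109 and 0.134.

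Other ATF4 target genes, for amino acid synthesis, transport and secreted signals, numbered 26 in the table and 24 after the filter. In DOX against DMSO 3 rose and 0 fell, where 6.86% of all genes were called. slc7a11, the cystine importer, was at 0.182, 0 and 0.0448 CPM in DMSO and 15.7, 6.53 and 1.99 CPM in DOX, a log2 fold change of 6.66 ± 1.04 (SE, edgeR adjusted p = 0.00992). The cysteine synthesis gene cth rose at 1.37 ± 0.31 and the mitochondrial folate enzyme gene aldh1l2 at 2.21 ± 0.55 (edgeR adjusted p = 0.0301 and 0.0383). Under library totals 10 of the 24 were called higher there (25.1% of all genes called higher), and leaving out each library gave 1 to 3 (1.04% to 6.52% of all genes called). slc7a11 and cth also rose in TDCIPP+DOX over DMSO and over TDCIPP. In TDCIPP+DOX slc7a11 was at 19.8, 8.96 and 16.6 CPM, and its log2 fold changes were 7.56 ± 1.07 and 4.19 ± 0.83 (edgeR adjusted p = 0.00257 and 0.0212). In TDCIPP it was at 1.35, 0.312 and 0.805 CPM, above all DMSO libraries (10.4% of all genes). That log2 fold change of 3.37 ± 1.03 did not pass in edgeR (edgeR adjusted p = 0.289, DESeq2 adjusted p = 0.0333).

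The falls in this list were shmt2, cbsa and eif4ebp1, in TDCIPP+DOX against DMSO, where 11.7% of all genes were called. shmt2, a mitochondrial serine and glycine enzyme gene, had a log2 fold change of -0.93 ± 0.20 (SE) and cbsa, for the first step from homocysteine to cysteine, -1.98 ± 0.44 (edgeR adjusted p = 0.0139 and 0.0148). Under library totals the list had 9 genes called higher and 0 lower in that comparison (36.4% of all genes called higher). When each library was left out 0 to 3 were called lower (5.11% to 17.1% of all genes called in either direction). In TDCIPP against DMSO 0 of 24 passed in edgeR (0.0418% of all genes), where 3 had an unadjusted p under 0.05 (10%) and DESeq2 called 2 (1.49%). In the comparison of TDCIPP+DOX with DOX, 0 of 24 passed in edgeR (2.1% of all genes), where 2 above and 7 below 0 had an unadjusted p under 0.05 (24.4%). DESeq2 called 2 higher and 4 lower (7.59% of all genes). slc7a11 is also known as a target of the oxidative stress factor Nrf2.

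Of 14 genes for cytoplasmic tRNA synthetases and tRNA export, 3 rose in DOX against DMSO (6.86% of all genes called): vars, nars and cars, with log2 fold changes of 0.97 ± 0.23 (SE), 1.04 ± 0.26 and 0.99 ± 0.27 (edgeR adjusted p = 0.0332, 0.0371 and 0.0476). The list's median there was 0.69 against 0.12 over all genes. Leaving out each library gave 0 to 4 calls (1.04% to 6.52% of all genes called), with 0 without DMSO replicate 1 or 3, TDCIPP replicate 3, DOX replicate 1 or 2, or any TDCIPP+DOX library, and 1 without DMSO replicate 2. nars and cars rose in TDCIPP+DOX over DMSO as well, at 0.95 ± 0.26 and 0.95 ± 0.27, where aars and gars fell, at -1.19 ± 0.19 and -0.91 ± 0.20 (edgeR adjusted p = 0.0365, 0.0407, 0.00346 and 0.0163). In that comparison 11.7% of all genes were called. The list's counts there were 0 to 2 higher and 1 to 3 lower when each library was left out (5.11% to 17.1% of all genes called). Under library totals 11 of the 14 were called higher and 0 lower in DOX against DMSO (25.1% of all genes called higher), and 9 higher and 0 lower in TDCIPP+DOX against DMSO (36.4%), where aars was at -0.17. When TDCIPP+DOX was compared with DOX, 0 of 14 passed in edgeR (2.1% of all genes), with 7 at an unadjusted p under 0.05 (24.4%) and 1 called by DESeq2 (7.59%). All 14 log2 fold changes were below 0 there, with a median of -0.45 against -0.08 over all genes, and -0.14 against 0.23 under library totals.

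**Figure D4:**
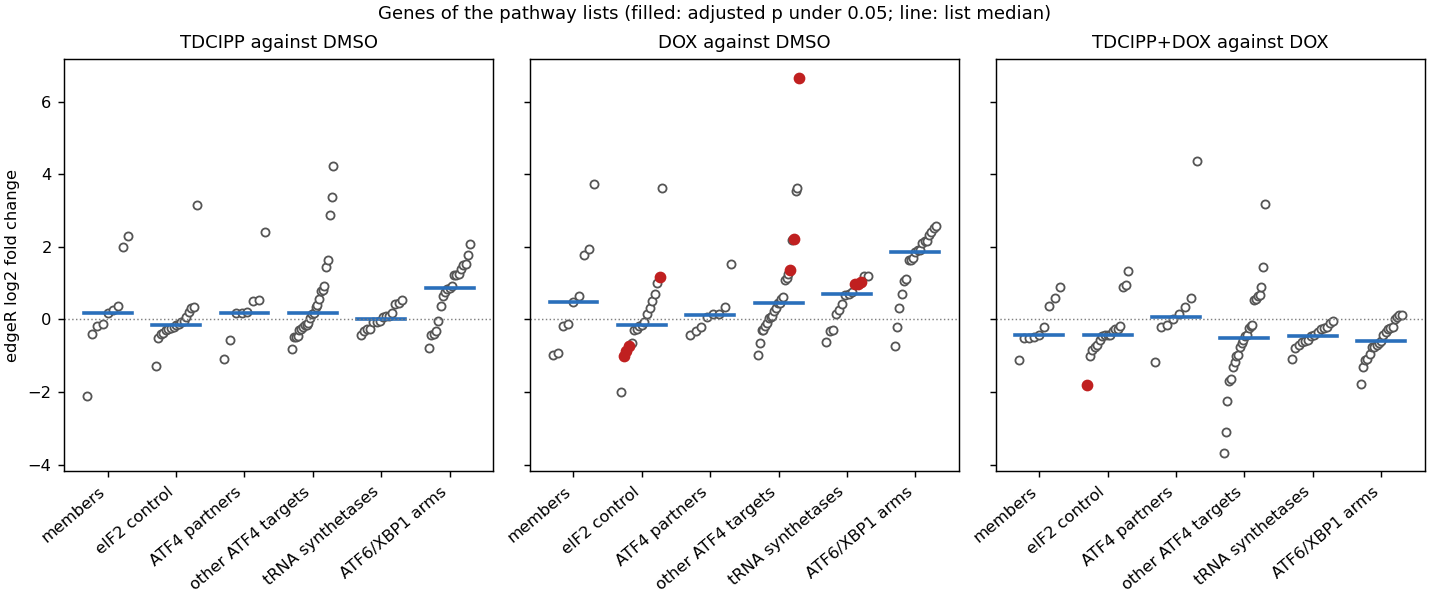
edgeR log2 fold change of each tested gene of the members and of 5 pathway lists in 3 comparisons; filled points passed an adjusted p of 0.05 and lines are list medians. In DOX against DMSO the line of the ATF6 and XBP1 list is at 1.87 and that of the members at 0.49, and filled points lie in the eIF2, ATF4 target and tRNA synthetase lists.

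The ATF6 and XBP1 arms of the unfolded protein response, which run beside PERK, were followed in 19 genes. In DOX against DMSO 0 of 19 passed at an adjusted p of 0.05 (6.86% of all genes), while the list's median log2 fold change was 1.87 against 0.12 over all genes. The libraries of 16 genes did not overlap and were higher in DOX (13.7% of all genes), 14 had an unadjusted p under 0.05 (26.6%), and DESeq2 called 11 at an adjusted p of 0.05 (9.52%). sel1l, an ER degradation gene, was at 33.9 ± 1.01 CPM in DMSO and 110 ± 5.09 CPM in DOX, a log2 fold change of 1.69 ± 0.47 (edgeR adjusted p = 0.0523). hspa5 was at 247 ± 50.3 and 1422 ± 118 CPM, a log2 fold change of 2.53 ± 0.80 (edgeR adjusted p = 0.0811, DESeq2 adjusted p = 0.00904). The count of 0 depended on the libraries in the fit and on the scaling: it was 13 without TDCIPP replicate 1 (6.52% of all genes called), 2 without TDCIPP replicate 2 (4.95%), 1 without DOX replicate 3 (5.78%) and 0 without any other single library. It was 10 with the DOX and DMSO libraries alone (0.597% of all genes called), 14 without the 4 libraries (3.57%), 2 with the replicate block (5.15%) and 17 under library totals (25.1% of all genes called higher), all higher in DOX.

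1 of the 19 passed in TDCIPP+DOX against DMSO, where 11.7% of all genes passed: xbp1, the factor gene of that arm, fell at -1.51 ± 0.30 (edgeR adjusted p = 0.00953). Under library totals its log2 fold change was -0.50 (edgeR adjusted p = 0.0958), and 15 of the 19 were called higher and 0 lower (36.4% of all genes called higher). The count was 11 higher and 2 lower without TDCIPP replicate 1 (11.1% of all genes called), 2 higher and 1 lower without TDCIPP replicate 2 or 3 (9.75% and 9.23%), 1 higher and 2 lower without DOX replicate 3 (17.1%), 0 without TDCIPP+DOX replicate 1 (5.11%), and 1 lower without any other single library. It was 10 higher and 3 lower with the libraries of these groups alone (17.5% of all genes called), 14 higher and 1 lower without the 4 libraries (12%), and 3 higher and 2 lower in DESeq2 (12.5%). The median log2 fold change of the list was 1.20 there, against 0.10 over all genes. In TDCIPP against DMSO it was 0.87 against 0.02, with 0 of 19 past the test (0.0418% of all genes). The libraries overlapped there for all 19, while 10.4% of all genes were higher and 8.95% lower without overlap. TDCIPP replicate 1 lay above all DMSO libraries for hspa5, hsp90b1, pdia4 and sel1l. sel1l was at 113, 28.7 and 31.6 CPM in TDCIPP replicates 1, 2 and 3. In TDCIPP+DOX against DOX, 0 of 19 passed in edgeR (2.1% of all genes), and DESeq2 called 3 lower (7.59%). There 15 of the 19 were below 0 and 4 above, with a median of -0.59 against -0.08 over all genes. Under library totals those medians were -0.26 and 0.23.

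Among 5 paralogues of the members, trib1 was the 1 gene that passed, in 1 comparison. This relative of trib3 was at 13.4, 9.55 and 20.5 CPM in DMSO, 1.56, 4.82 and 4.41 CPM in TDCIPP, 11.5, 19.3 and 6.07 CPM in DOX, and 28.4, 18.3 and 22.4 CPM in TDCIPP+DOX. It rose in TDCIPP+DOX over TDCIPP with a log2 fold change of 2.68 ± 0.51 (SE, edgeR adjusted p = 0.0185), the comparison in which ddit4 rose and 4.18% of all genes were called. As with ddit4, all TDCIPP libraries lay below all DMSO libraries, with a log2 fold change of -2.01 ± 0.50 that did not pass (edgeR adjusted p = 0.218, DESeq2 adjusted p = 0.0091). Over all pathway lists there were 36 calls of a gene in a comparison. DESeq2, which called more of all genes than edgeR in every comparison, also made all 36. In edgeR 6 held when each library in turn was left out. For all genes the matching share is not given here. The 6 were slc7a11 in DOX against DMSO, and slc7a11, eif2s1b, eif2s3, gcn1 and aars in TDCIPP+DOX against DMSO. Under library totals slc7a11 stayed called in these comparisons, at 7.15 and 8.54 (edgeR adjusted p = 0.00277 and 0.000522). With that scaling eif2s1b, eif2s3, gcn1 and aars were at -0.44, -0.30, -0.13 and -0.17 and were not called (edgeR adjusted p = 0.0526, 0.165, 0.545 and 0.505).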

How the data were processed

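Per the labels' protocols, Trizol was used for extraction and the NEBNext Ultra kit for library preparation. The authors deposited raw counts of reads per gene and FPKM values in 1 table. HISAT is named in the submitters' processing notes; no source used here gives its version, the counting program or the genome build. The deposited table also holds adjusted p-values of the authors' own comparisons, whose tool is not named. Count columns were matched to libraries by their headers, with 0 left over. Gene names came from the table, and 5571 unnamed genes were given a symbol from a reference table. The members and lists were chosen with earlier results of these data known.

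The quasi-likelihood model of edgeR 4.0.16 in R 4.3.3, with TMM scaling and the default filter on low counts by group, was fitted to the counts as 1 model of 4 group means over 12 libraries, with 8 residual degrees of freedom. Tests were 2-sided, with Benjamini-Hochberg adjustment over 19160 genes and a threshold of 0.05. The SE of a log2 fold change was its size over the root of the F statistic, and intervals are 95%. The fit was tested on simulated data. DESeq2 1.42.0 was an alternative, beside other scalings, no filter, a replicate block, a threshold of 0.1, only the groups compared, leaving out each library, and leaving out 4 libraries with intestine or oocyte transcripts (replicate 3 of DMSO, of DOX and of TDCIPP+DOX, and replicate 1 of TDCIPP). The libraries kept in that last fit still held exocrine pancreas transcripts, with a marker sum of 1668 CPM in TDCIPP+DOX replicate 1. The same alternatives for the pathway lists were added after seeing the data. Every member is named; of other lists, up to 4 genes past the threshold per comparison, else the 2 with the smallest p, plus hspa5, the eIF2 kinases and the ppp1r15 genes. Some genes named by this rule are not printed. phgdh, vldlr, hsp90b1, pdia4 and sel1l by library, and atf5b, apoa4b.1, vil1 and cd68, were singled out after their values were seen. Levels are CPM over TMM-scaled library sizes.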

Additional observations from a re-analysis of the deposited data

How the results depend on the processing

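Over the alternatives for the members' log2 fold changes, 952 of 1017 values kept their direction and side of the threshold, 11 lost the call, 15 gained one and 39 changed sign. Only ddit4 in TDCIPP+DOX against TDCIPP was called in the main fit, so no other value could lose a call, and all 11 losses were there. That call was kept under DESeq2 size factors, library totals, no filter, DESeq2, only the groups compared, and without any 1 DOX library. Counts of members called moved as follows. In DOX against DMSO the count was 5 under library totals, 1 in DESeq2 (psat1; 9.52% of all genes), 1 with the replicate block (sesn2; 5.15%), 2 at a threshold of 0.1 (asns and psat1; 13.6% of all genes), and 0 to 1 when each library was left out (1.04% to 6.52% of all genes). In TDCIPP+DOX against DMSO it was 6 under library totals and 1 without the 4 libraries (sesn2; 12%). In TDCIPP+DOX against TDCIPP it was 2 under library totals (trib3 and ddit4; 13.2% of all genes called higher), 0 with the replicate block (ddit4 adjusted p = 0.0804; 3.79% of all genes), 0 without the 4 libraries (0.0656; 4.4%) and 0 to 1 when each library was left out (0.635% to 6.76%). The cause was not tested.

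The labels do not say whether replicate numbers pair the libraries. Deviations of same-numbered libraries correlated at -0.225 to 0.182 over 18 pairs, 2 of them over 0.1. For libraries of other numbers the range was -0.229 to 0.242 over 36 pairs, 6 of them over 0.1. Of 12 libraries, 3 were closest to one of their own number. With 3 libraries a group, these values cannot show that pairing was absent. With the replicate block, atf3 in TDCIPP+DOX against DMSO was 0.62 and asns in TDCIPP+DOX against TDCIPP -0.0022 in log2.

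Sign changes under library totals, in log2, were ddit3 0.18 and trib3 0.22 in TDCIPP against DMSO, atf4b 0.51 and trib3 0.50 in DOX against DMSO, and atf4b 0.16 in TDCIPP+DOX against DOX. In TDCIPP+DOX against DMSO they were atf4b 0.67, atf3 0.90, ddit3 0.42, impact 0.13, gars 0.11 and shmt2 0.09, and in TDCIPP+DOX against TDCIPP atf4a 0.44 and ddit3 0.24. That scaling moved the median of all genes from 0.02 to 0.39, 0.12 to 0.83, -0.08 to 0.23, 0.10 to 1.11 and -0.01 to 0.64 in these 5 comparisons. Without the 4 libraries the values were trib3 0.042 in TDCIPP against DMSO, atf4b 0.0082 in DOX against DMSO, sesn2 0.019 and psat1 1.48 in TDCIPP+DOX against DOX, asns -0.013 in TDCIPP+DOX against TDCIPP, and atf3 0.25 in the interaction. With no filter atf3 was 0.0023 in TDCIPP+DOX against DMSO.

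Leaving out each library gave log2 ranges that crossed 0 for trib3 (-0.35 to 0.044) and sesn2 (-0.074 to 1.39) in TDCIPP against DMSO, and for atf4b (-0.31 to 0.11) and atf3 (-1.38 to 0.48) in DOX against DMSO. In TDCIPP+DOX against DOX they did for sesn2 (-0.85 to 0.11), psat1 (-1.76 to 1.13) and ddit4 (-0.96 to 0.72), and against DMSO for atf4a (-0.067 to 0.33) and atf3 (-0.48 to 1.38). Against TDCIPP they did for atf4b (-0.098 to 0.25), asns (-0.072 to 0.14) and psat1 (-0.34 to 0.66), and in the interaction for atf4b (-0.049 to 0.37) and atf3 (-2.52 to 0.096).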
